A study of Mus musculus with 2 samples.

Results

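Car4 capillary endothelial cells of the mouse lung were compared between 2 single-cell RNA libraries, Cherry_positive and Cherry_negative. A cell belonged to the class when its endothelial UMIs (Pecam1, Cdh5, Cldn5, Egfl7 and Ramp2) numbered at least 4 and exceeded its fibroblast UMIs (Col1a1, Col1a2, Col3a1 and Dcn), and when the summed UMIs of Car4, Ednrb, Apln, Chst1 and Fibin numbered at least 3 and strictly exceeded the matching sums for general capillary, arterial, venous and lymphatic genes. A UMI is a molecular barcode that counts 1 captured transcript. The rule chose 425 of 4581 kept cells, of which 1803 were endothelial. Of these cells 85 were in the Cherry_positive library and 340 in the Cherry_negative library.

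Both libraries came from CD45- cells, the non-leukocyte fraction, sorted from dissociated lungs 7 days after labelling 4T1 cells were injected intravenously. The 4T1 line is a mouse mammary carcinoma line, and in the niche-labelling system its cells release a fluorescent Cherry protein that neighbouring cells can take up. By their names, Cherry_positive cells were sorted as carrying the label and Cherry_negative cells as lacking it. Both groups came from lungs that held 4T1 cells, and no lung without them is part of the comparison. The strain, sex, age and number of mice, any other treatment, and whether both fractions came from the same lungs are not given in the labels. With 1 library per group no test was possible: ratios of Cherry_positive over Cherry_negative carry 95% intervals that cover the counting of UMIs only, and the spread between animals is unknown.

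Car4 capillary cells, also called aerocytes, are large, thin endothelial cells that lie against the type 1 epithelium of the alveolus and are known for their part in gas exchange. They share the alveolar capillary bed with general capillary cells, which express the apelin receptor and renew the bed after injury. Car4 encodes a carbonic anhydrase of the luminal surface, Ednrb an endothelin receptor, Apln the ligand apelin, and Chst1 a carbohydrate sulfotransferase. The class depends on VEGF signalling through Kdr, and endothelial cells in general answer interferon gamma with chemokines for T cells, antigen presentation genes and GTPases of the cell-autonomous defence.

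The Cherry_positive library held 1826 barcodes and 10094853 UMIs and the Cherry_negative library 2861 barcodes and 11632459 UMIs. Of these, 1770 Cherry_positive and 2811 Cherry_negative cells were kept. The members held 308374 UMIs in the Cherry_positive library (median 3150 per cell, range 1956 to 13170) and 1149636 in the Cherry_negative library (median 2695.5, range 1467 to 49372). A level below is given in CPM, the UMIs of a gene per 1000000 UMIs of the class in that library.

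The genes of the rule describe the members and test nothing. The median sum of the 5 rule genes was 14 UMIs per Cherry_positive cell (quartiles 9 and 22) and 13 per Cherry_negative cell (quartiles 8 and 21). All 5 genes had a UMI in 14 Cherry_positive and 50 Cherry_negative cells, and a single gene carried the whole sum in 10 Cherry_positive and 73 Cherry_negative cells. Car4 itself was at 0 in 0 Cherry_positive and 4 Cherry_negative cells. Just inside the threshold, at a sum of 3, lay 3 Cherry_positive and 12 Cherry_negative cells, where Prx and Il1a together gave 2.75 UMIs per 10000 in the Cherry_positive and 4.18 in the Cherry_negative cells. Just outside it, at a sum of 2, lay 4 Cherry_positive and 10 Cherry_negative cells, where these genes gave 0 and 0.475 UMIs per 10000 in the Cherry_positive and the Cherry_negative cells. Cells with a sum of 10 or more gave 8.47 UMIs per 10000 in the Cherry_positive library and 7.15 in the Cherry_negative library.

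Members were a smaller share of all kept cells and a larger share of endothelial cells in the Cherry_positive library. They were 4.80% of the kept Cherry_positive cells (exact binomial interval 3.85 to 5.90) and 12.1% of the kept Cherry_negative cells (10.9 to 13.4). Among endothelial cells they were 85 of 258 Cherry_positive cells, or 32.9% (27.2 to 39.0), and 340 of 1545 Cherry_negative cells, or 22.01% (19.96 to 24.2). General capillary cells, chosen by the same rule with their own sum, were 37.2% of Cherry_positive and 49.7% of Cherry_negative endothelial cells. Lymphatic cells were 6.98% of Cherry_positive and 0.259% of Cherry_negative endothelial cells. The sort by Cherry fluorescence separates the libraries, so these shares describe sorted fractions and not the lung.

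**Figure D1:**
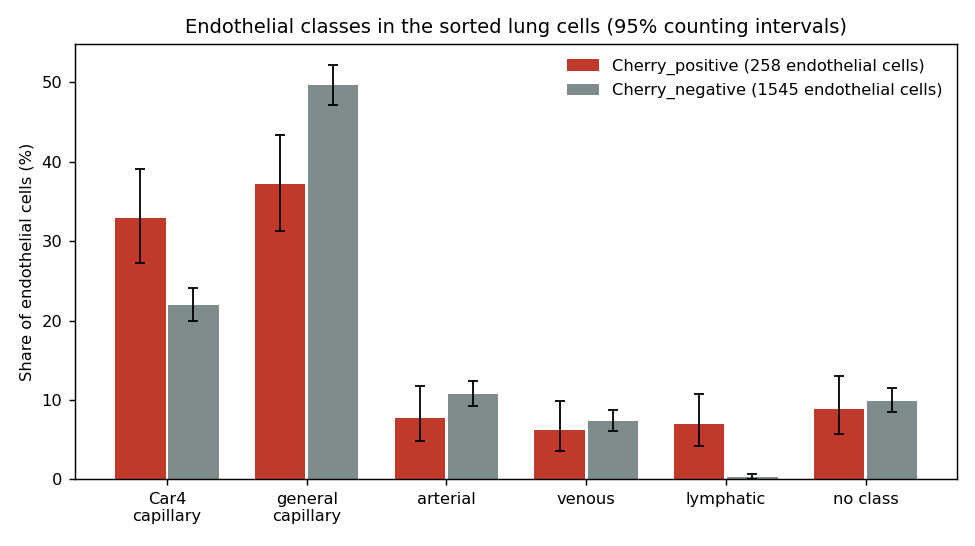
Share of endothelial cells (percent, y axis) in each endothelial class for the Cherry_positive library (left bar of each pair) and the Cherry_negative library (right bar), with exact 95% binomial intervals. Car4 capillary cells stand at 32.9% against 22.01%, and general capillary cells at 37.2% against 49.7%.

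The label was checked with Car4 capillary genes that the rule did not use, although a class cut from the same cells cannot be tested against the rest. Of 13 such genes, 12 were higher in the members than in general capillary cells of both libraries. Il1a, a cytokine gene, had 256 CPM in members against 4.96 CPM in general capillary cells of the Cherry_positive library, and 188 against 6.72 CPM in the Cherry_negative library. Prx, which encodes periaxin, had 535 against 107 CPM in the Cherry_positive library and 417 against 106 CPM in the Cherry_negative library. Prx had a UMI in 67 of 85 Cherry_positive members (78.8%) and 231 of 340 Cherry_negative members (67.9%), and in 73.5% and 53.4% of them once cells were thinned to 2000 UMIs. In AT2-like cells, a type that should lack it, Prx was found in 0 of 19 Cherry_positive cells, which allows a share of cells with a UMI of up to 15.8%, and in 2.20% of 364 Cherry_negative cells.

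Kdr, the main VEGF receptor of endothelium, had 999 against 285 CPM in the Cherry_positive library and 891 against 354 CPM in the Cherry_negative library. Tbx3, a T-box transcription factor, had 396 against 72.0 CPM in the Cherry_positive library and 508 against 107 CPM in the Cherry_negative library. Emp2, a tetraspan membrane protein gene, had 2079 against 164 CPM in the Cherry_positive library and 1784 against 112 CPM in the Cherry_negative library. The exception was Hpgd, the prostaglandin-degrading dehydrogenase, at 704 against 715 CPM in the Cherry_positive library and 1007 against 1125 CPM in the Cherry_negative library. Hopx, often used as a marker of type 1 epithelium, had 1171 CPM in members against 395 CPM in general capillary cells of the Cherry_positive library, and 1281 against 536 CPM in the Cherry_negative library.

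**Figure D2:**
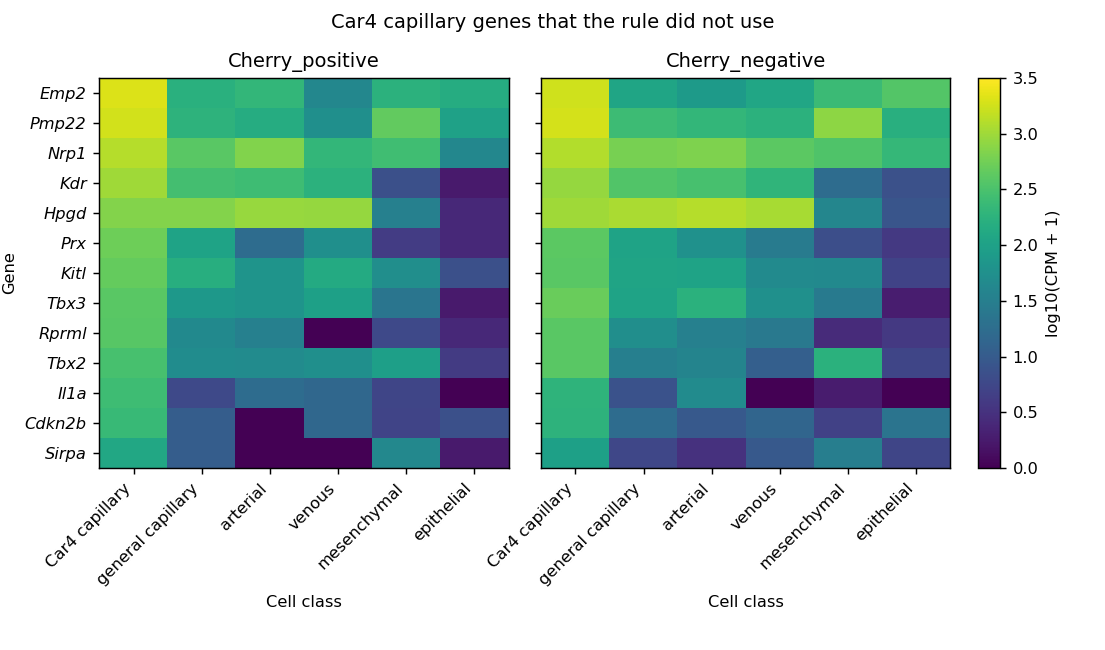
Heat map of the 13 Car4 capillary genes outside the rule (rows) by cell class (columns), Cherry_positive in the left panel and Cherry_negative in the right, coloured by log10(CPM + 1). Il1a, Prx and Emp2 are brighter in Car4 capillary than in general capillary cells of both libraries, and Hpgd is similar across the endothelial classes shown.

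Against all other endothelial cells together, 160 of 2806 genes (5.70%) were at least 2-fold higher in the members of both libraries, after 10 CPM was added to each level, and 90 of 2768 (3.25%) were at least 2-fold lower. The rule made this contrast, so the counts are descriptive. AW112010, an interferon-inducible transcript, had 1372 CPM in members against 85.1 CPM in other endothelial cells of the Cherry_positive library, and 1236 against 81.3 CPM in the Cherry_negative library. Alpl, which encodes the tissue-nonspecific alkaline phosphatase, had 185 against 6.17 CPM in the Cherry_positive library and 193 against 6.57 CPM in the Cherry_negative library. Both genes were high in members of both libraries.

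Among the genes lower in members, Vcam1, a leukocyte adhesion receptor, had 32.4 against 205 CPM in the Cherry_positive library and 21.7 against 280 CPM in the Cherry_negative library. Lrg1, a secreted glycoprotein of angiogenic endothelium, had 29.2 against 358 CPM in the Cherry_positive library and 25.2 against 206 CPM in the Cherry_negative library. Cxcl12, the ligand of Cxcr4, had 13.0 against 158 CPM in the Cherry_positive library and 43.5 against 262 CPM in the Cherry_negative library.

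RNA of other cell types was present among the members and differed between the libraries. The 8 markers of type 2 alveolar epithelium (AT2) summed to 175 CPM in Cherry_positive members, with Sftpd, Lamp3, Napsa, Slc34a2 and Epcam at 0, and to 9702 CPM in Cherry_negative members, with 8 of 8 detected. In the Cherry_negative library 11 cells held 9194 of the 11154 AT2 marker UMIs. Macrophage and monocyte markers summed to 25.9 CPM in Cherry_positive members and 926 CPM in Cherry_negative members, and Cd68, Csf1r and Ccr2 were at 0 in the Cherry_positive members. Of the 8 markers 2 were detected in Cherry_positive and 6 in Cherry_negative members. Markers of leukocytes in general summed to 29.2 CPM in Cherry_positive members, where 4 of 12 were detected and Tyrobp and Laptm5 were at 0, and to 169 CPM in Cherry_negative members, where 11 were.

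Alveolar fibroblast markers summed to 639 CPM in Cherry_positive members and 794 CPM in Cherry_negative members, with all 8 markers detected in both. That was 8.84% of their level in Cherry_positive mesenchymal cells and 4.55% of it in Cherry_negative ones. Pericyte markers summed to 55.1 CPM in Cherry_positive and 86.1 CPM in Cherry_negative members, and platelet and erythroid markers to 152 CPM in Cherry_positive and 35.7 CPM in Cherry_negative members. Markers of type 1 epithelium summed to 1450 CPM in Cherry_positive and 1673 CPM in Cherry_negative members, and those of airway epithelium to 869 CPM and 855 CPM. Hopx, given above as higher in members than in general capillary cells, held 361 of the 447 type 1 UMIs in Cherry_positive members. In Cherry_negative members it held 1473 of 1923. Tppp3 held 157 of the 268 airway UMIs in Cherry_positive and 580 of 983 in Cherry_negative members. Whether these 2 sums came from other cell types was not tested. Carcinoma-like markers summed to 22.7 CPM in Cherry_positive and 170 CPM in Cherry_negative members, and 1 Cherry_negative cell held 70.4% of that library's sum. In all, 3 Cherry_positive members (3.53%) and 21 Cherry_negative members (6.18%) held at least 20 UMIs of other lineages, counted over the alveolar fibroblast, AT2, pericyte and leukocyte markers. Free RNA and doublets were not told apart here, and values without these cells are given beside the results they move. The libraries shared 13 barcodes, which included 0 Cherry_positive and 2 Cherry_negative members.

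Between Cherry_positive and Cherry_negative members, 99 of 5718 genes (1.73%) were at least 2-fold higher and 262 (4.58%) at least 2-fold lower. A gene entered this count when the libraries together held at least 30 of its UMIs and its level reached 20 CPM in 1 of them. In general capillary cells 171 of 6204 genes (2.76%) were higher and 301 (4.85%) lower by the same rule. Of the 262 lower genes in members, 39 had a level over 10 times higher in another lineage of the Cherry_negative library. Of the 99 higher genes, 8 had such a level in the Cherry_positive library. The share of all genes past this mark was not counted. Without members holding 20 or more UMIs of other lineages, 77 of 5152 genes (1.49%) were higher and 189 (3.67%) lower. The 15 genes each way named below are those whose ratio interval lay farthest from 1, leaving out genes of the rule and those high in another lineage.

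Several genes known to answer interferon gamma were among the 15 higher genes. Cxcl10, a T cell chemokine gene (GRCm38, chr5:92346638-92348889), had 412 CPM in Cherry_positive members and 59.1 CPM in Cherry_negative members, a ratio of 6.96 (5.15 to 9.49). Its neighbour Cxcl9 (chr5:92321347-92328079), a ligand of the same receptor, had 204 CPM in Cherry_positive and 14.8 CPM in Cherry_negative members, a ratio of 13.8 (7.98 to 25.2). Ido1 (chr8:24584136-24597009), which degrades tryptophan and restrains T cells, had 139 CPM in Cherry_positive and 7.83 CPM in Cherry_negative members, a ratio of 17.8 (8.56 to 41.6). Each of the 3 genes was thus several times higher in Cherry_positive members. Gbp2b (chr3:142594847-142619179), a guanylate-binding protein gene, had 250 CPM in Cherry_positive and 54.8 CPM in Cherry_negative members, a ratio of 4.56 (3.22 to 6.46). Iigp1, an immunity-related GTPase gene, had 188 CPM in Cherry_positive and 66.1 CPM in Cherry_negative members, a ratio of 2.85 (1.99 to 4.06). The Gbp and immunity-related GTPase genes have close paralogs, so how their reads were assigned is uncertain.

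Few cells carried most of these transcripts. Cxcl10 had a UMI in 25 Cherry_positive and 14 Cherry_negative members, with a median of 1 UMI in both and a highest value of 51 UMIs in the Cherry_positive library and 41 UMIs in the Cherry_negative library. A single cell held 40.2% of the Cherry_positive and another 60.3% of the Cherry_negative Cxcl10 UMIs. Without the Cherry_positive cell with most UMIs of the gene, the ratio was 4.23 for Cxcl10, 8.92 for Cxcl9, 6.32 for Ido1 and 2.71 for Gbp2b. Cxcl9 had a UMI in 13 Cherry_positive and 4 Cherry_negative cells, and Ido1 in 7 Cherry_positive and 6 Cherry_negative cells. Both chemokines were found in 5 Cherry_positive cells and 1 Cherry_negative cell.

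At 2000 UMIs per cell, which left 83 Cherry_positive and 253 Cherry_negative members, Cxcl10 had a UMI in 20.5% (12.4 to 30.8) of Cherry_positive and 1.58% of Cherry_negative members, against 29.4% and 4.12% of all 85 Cherry_positive and 340 Cherry_negative members without thinning. Among AT2-like cells Cxcl10 was found in 5.26% of 19 Cherry_positive and 0.824% of 364 Cherry_negative cells after thinning, and in 52.6% of the Cherry_positive and 2.47% of the Cherry_negative cells without it. Their median depths were 8074 UMIs in the Cherry_positive library and 8204.5 UMIs in the Cherry_negative library. The unthinned Cherry_positive share in members thus lay below that in the deeper AT2-like cells. Cxcl9 had a UMI in 12.0% of thinned Cherry_positive and 1.19% of thinned Cherry_negative members, against 15.3% and 1.18% without thinning. In AT2-like cells Cxcl9 was found in 0 of 19 thinned Cherry_positive cells, which allows a share of cells with a UMI of up to 15.8%, and in 0.275% of Cherry_negative cells. For Cxcl10 and Cxcl9 alike, the 19 thinned cells are too few to place the Cherry_positive share of members above that of AT2-like cells.

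Mesenchymal cells of the Cherry_positive library held more Cxcl10 than the members, at 3318 CPM, and more Cxcl9, at 661 CPM. At the 8.84% set by the fibroblast markers these levels come to 293 CPM for Cxcl10, against 412 CPM measured, and 58.4 CPM for Cxcl9, against 204 CPM measured. Without members holding 20 or more UMIs of other lineages the fibroblast markers stood at 2.62% of the mesenchymal level, which comes to 86.9 CPM for Cxcl10, against 437 CPM measured, and 17.3 CPM for Cxcl9, against 217 CPM measured. For Iigp1, at 1314 CPM in mesenchymal cells, the same reckoning gives 116 CPM, against 188 CPM measured, and without those members 34.4 CPM, against 176 CPM measured. The Cxcl10 ratio without those cells was 6.43. Ido1 stood at 0.586 CPM in mesenchymal cells, far below its level in the members.

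Sequence upstream of the higher genes was read from RefSeq (GRCm38.p6) to show where it holds the interferon-stimulated response motif, GAAA and GAAA with any 2 bases between them. Windows of the 250 bases before a RefSeq gene start were found for 12 of the 15 higher genes, as 17 windows. The AA467197 window (chr2:122637637-122637886) lies past the GENCODE start of that gene at 122636986. Of the 12 genes, 2 held the motif on either strand, each in 1 window, so 2 of the 17 windows held it. Over all promoters of this length 978 of 32851 windows (2.98%) held it. The motif TTCNNNGAA, which reads the same on both strands, was in 0 of the 17 windows of the 12 genes and in 2306 of all windows (7.02%). Cxcl10 and Gbp2b are shown because they are the genes of the higher group that held the first motif, given in capitals. The Cxcl10 window is chr5:92348890-92349139 on the minus strand and the Gbp2b window chr3:142594597-142594846 on the plus strand, each printed 5′ to 3′ toward the gene start.
Cxcl10: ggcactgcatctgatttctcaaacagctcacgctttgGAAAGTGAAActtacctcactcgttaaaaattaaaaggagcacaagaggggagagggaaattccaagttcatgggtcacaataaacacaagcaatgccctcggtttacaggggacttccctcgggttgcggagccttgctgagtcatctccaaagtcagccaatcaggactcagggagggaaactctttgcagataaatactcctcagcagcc
Gbp2b: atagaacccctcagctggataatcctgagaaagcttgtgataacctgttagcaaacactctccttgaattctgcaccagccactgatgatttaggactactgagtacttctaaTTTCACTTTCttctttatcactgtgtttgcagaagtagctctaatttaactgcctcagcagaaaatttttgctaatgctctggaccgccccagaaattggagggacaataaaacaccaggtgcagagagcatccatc
In the Cxcl10 window the motif begins 213 bases before the start. In the Gbp2b window it lies on the opposite strand and begins 137 bases before the start. A match is a description of these letters and not of a bound site.

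The interferon gamma list as a whole was higher in Cherry_positive members. The list, like those below, was chosen with earlier results of these data known. Of 22 members of the list with at least 10 UMIs, 22 were higher, against 4638 of all 8799 genes with at least 10 UMIs. That background also applies to the lists below in Car4 members. In 12 the interval lay above 1, and the number of all genes with such an interval was not counted. Of the 19 that could be called, 5 were at least 2-fold higher, against 1.73% of all genes. The median log2 ratio was 0.83, beside 0.02 over all 8799 genes with at least 10 UMIs. Serpina3g, a serine protease inhibitor gene, had 233 CPM in Cherry_positive and 108 CPM in Cherry_negative members, a ratio of 2.16 (1.60 to 2.92). Irf8, an interferon regulatory factor gene, had 38.9 CPM in Cherry_positive and 4.35 CPM in Cherry_negative members, a ratio of 8.95 (2.93 to 32.4), or 17.8 without members holding 20 or more UMIs of other lineages. Irf8 rested on 12 UMIs in 6 Cherry_positive cells, 6 of them in 1 cell, and on 5 UMIs in 4 Cherry_negative cells. That is under the 30 UMIs needed for a call. Ubd, which encodes a ubiquitin-like protein, had 42.2 CPM from 13 UMIs in 3 Cherry_positive cells and 0 UMIs in Cherry_negative members, and the interval of its ratio began at 11.4.

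Other members of the list had smaller ratios. Gbp4 had 282 CPM in Cherry_positive and 201 CPM in Cherry_negative members, a ratio of 1.40 (1.08 to 1.804). Gbp2 had 156 CPM in Cherry_positive and 98.3 CPM in Cherry_negative members, a ratio of 1.58 (1.11 to 2.24). Irf1 had 448 CPM in Cherry_positive and 398 CPM in Cherry_negative members, a ratio of 1.12.

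General capillary cells held more of these transcripts in both fractions. The list summed to 3233 CPM in Cherry_positive and 1815 CPM in Cherry_negative Car4 members, and to 8267 CPM in Cherry_positive and 3222 CPM in Cherry_negative general capillary cells. Of the 22 genes, 21 had a lower Cherry_positive level in Car4 members than in general capillary cells, and 15 a lower ratio. The median log2 ratio was 1.27 in general capillary cells, where 14 of 22 genes that could be called were at least 2-fold higher, against 2.76% of all genes there. The difference between the classes was not tested.

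**Figure D3:**
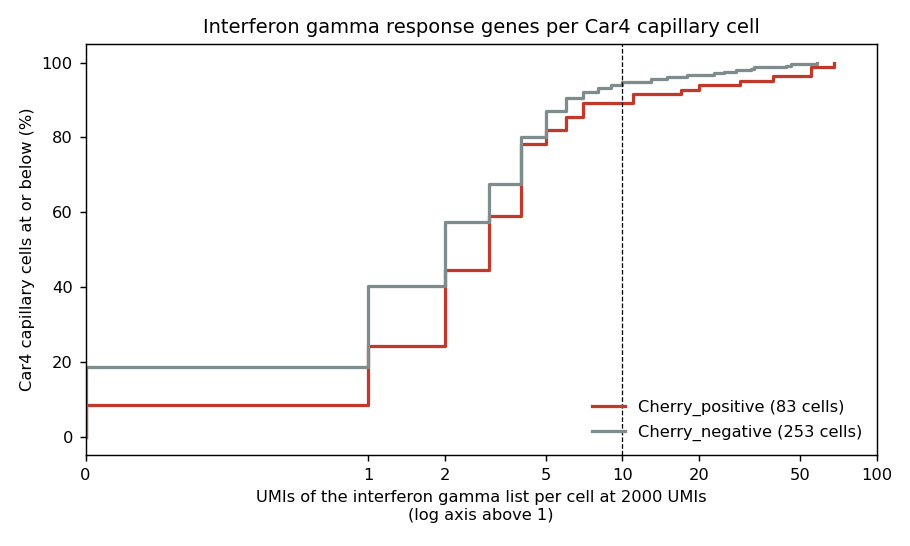
Interferon gamma list UMIs per Car4 capillary cell after thinning to 2000 UMIs (x axis, log above 1) against the share of cells at or below that number (y axis, percent), for 83 Cherry_positive and 253 Cherry_negative cells. The dashed line marks 10 UMIs, which 9 Cherry_positive and 15 Cherry_negative cells reached.

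Cell by cell, the list was concentrated in a small group of members. After thinning, the median Cherry_positive member held 3 UMIs of the list and the highest 68. Cells with at least 10 such UMIs were 9 of 83 in the Cherry_positive library (10.8%, 5.08 to 19.6) and 15 of 253 in the Cherry_negative library (5.93%). These cells held 60.3% of the list UMIs of Cherry_positive members and 41.0% of those of Cherry_negative members. Among general capillary cells those past the same mark held 85.8% of the Cherry_positive and 56.2% of the Cherry_negative list UMIs. Members with no UMI of the list were 7 in the Cherry_positive library and 47 in the Cherry_negative library.

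**Figure D4:**
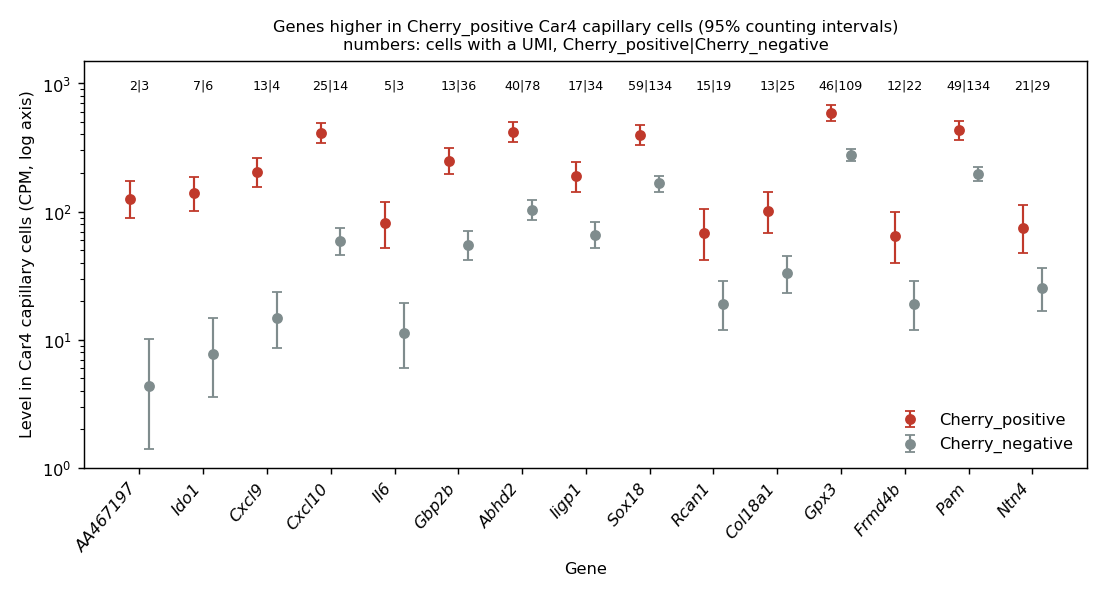
Levels of the 15 higher genes in Car4 capillary cells (CPM, log axis), Cherry_positive left of Cherry_negative, with 95% counting intervals and, above them, the number of cells with a UMI in each library. Cxcl10 stands at 412 against 59.1 CPM with 25 and 14 cells, and AA467197 rests on 2 and 3 cells.

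Of the 15 higher genes, 7 were also at least 2-fold higher in general capillary cells, against 2.76% of all genes there. Another 3, Il6, Ntn4 and Rcan1, had a ratio under 1 in general capillary cells, each with an interval that included 1. Abhd2, a serine hydrolase gene (chr7:79273199-79365508), had 418 CPM in Cherry_positive and 104 CPM in Cherry_negative members, a ratio of 4.04 (3.13 to 5.23), against 1.48 (1.15 to 1.88) in general capillary cells. It had a UMI in 37.3% of thinned Cherry_positive and 19.0% of thinned Cherry_negative members, against 47.1% and 22.9% without thinning. AT2-like cells had it in 52.6% of thinned Cherry_positive and 34.1% of thinned Cherry_negative cells, so the share in members is not above that level. Sox18, a transcription factor gene of endothelium (chr2:181669836-181671640), had 396 CPM in Cherry_positive and 166 CPM in Cherry_negative members, a ratio of 2.38 (1.88 to 3.00), against 1.63 (1.32 to 1.99) in general capillary cells. Sox18 had a UMI in 48.2% of thinned Cherry_positive and 30.8% of thinned Cherry_negative members, against 69.4% and 39.4% without thinning. After thinning it was found in 0 of 19 Cherry_positive AT2-like cells, which allows a share of cells with a UMI of up to 15.8%, and in 0.549% of Cherry_negative ones. No single cell held over 5.74% of the Sox18 UMIs of Cherry_positive members.

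Pam, which encodes a peptide-amidating enzyme, had 431 CPM in Cherry_positive and 197 CPM in Cherry_negative members, a ratio of 2.18 (1.75 to 2.72), against 1.001 (0.755 to 1.31) in general capillary cells. Ntn4, a netrin of basement membranes, had 74.6 CPM in Cherry_positive and 25.2 CPM in Cherry_negative members, a ratio of 2.96 (1.63 to 5.29), and was found in 21 Cherry_positive and 29 Cherry_negative members. Its general capillary ratio of 0.493 had an interval of 0.0564 to 1.98. The Ntn4 intervals of the 2 classes overlapped. Pam, Ntn4 and Abhd2 were named for their ratio in Car4 members, and the difference between the classes was not tested. Rcan1, a calcineurin inhibitor gene, had 68.1 CPM in Cherry_positive and 19.1 CPM in Cherry_negative members, a ratio of 3.56 (1.86 to 6.78). Col18a1, the collagen that yields endostatin, had 101 CPM in Cherry_positive and 33.1 CPM in Cherry_negative members, a ratio of 3.04 (1.83 to 5.02). Frmd4b had 64.9 CPM in Cherry_positive and 19.1 CPM in Cherry_negative members, a ratio of 3.39 (1.75 to 6.51).

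The remaining higher genes rested on few cells or shared their transcripts with mesenchymal cells. AA467197, whose human counterpart encodes a small mitochondrial protein, had the highest ratio of the named genes, 29.1 (11.5 to 94.5), at 126 CPM in Cherry_positive and 4.35 CPM in Cherry_negative members. Its UMIs lay in 2 Cherry_positive and 3 Cherry_negative cells, and both Cherry_positive cells also held Cxcl9 and Cxcl10. Il6, an inflammatory cytokine gene, had 81.1 CPM in Cherry_positive and 11.3 CPM in Cherry_negative members, but 84.0% of the Cherry_positive UMIs lay in 1 cell, without which the ratio was 1.17. Gpx3, a secreted glutathione peroxidase gene, had 590 CPM in Cherry_positive and 277 CPM in Cherry_negative members, a ratio of 2.13 (1.76 to 2.56). Mesenchymal cells of the Cherry_positive library held 2966 CPM of Gpx3, of which 8.84% is 262 CPM, and without members holding 20 or more UMIs of other lineages 2.62% of it is 77.7 CPM, against 351 CPM measured. The Gpx3 ratio without those members was 1.66. Without the Cherry_positive cell with most Gpx3 it was 1.505.

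On the lower side, 10 of the 15 named genes had at least 50% of their Cherry_negative UMIs in a single cell, and 8 had a ratio of 0.5 or below without members holding 20 or more UMIs of other lineages. Of these 8, Wfdc17, Slpi and Ctss then had 0 Cherry_positive UMIs and 1, 4 and 7 Cherry_negative UMIs, too few to compare, and the interval of Aprt reached 1.505. Ptprb, the vascular endothelial phosphatase that acts on Tek (chr10:116275523-116389535), was spread over many cells. It had 64.9 CPM in Cherry_positive and 192 CPM in Cherry_negative members, a ratio of 0.337 (0.202 to 0.534), and a UMI in 12 Cherry_positive and 139 Cherry_negative cells. Its general capillary ratio was 0.559 (0.462 to 0.673). Msl3, a gene of the chromatin-binding MSL complex (chrX:168654117-168673898), had 3.24 CPM in Cherry_positive and 40.0 CPM in Cherry_negative members, from 1 Cherry_positive and 43 Cherry_negative cells, a ratio of 0.0810 (0.00201 to 0.475). After thinning Msl3 had a UMI in 1.205% of Cherry_positive and 7.51% of Cherry_negative members, against 1.18% and 12.6% without thinning, and in 2.75% of Cherry_negative AT2-like cells.

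Fabp5, a fatty acid-binding protein gene, had 0 UMIs in 85 Cherry_positive members, which allows a share of cells with a UMI of up to 3.53%, and 194 UMIs in 21 Cherry_negative members. The interval of its ratio reached up to 0.0716, and up to 0.384 without members holding 20 or more UMIs of other lineages. AT2-like cells held it in 84.2% of Cherry_positive and 79.7% of Cherry_negative thinned cells, and without those members 33 Cherry_negative UMIs remained. Lgals1, the galectin-1 gene, had 292 CPM in Cherry_positive and 795 CPM in Cherry_negative members, but 1 Cherry_negative cell held 90.04% of that library's UMIs. Without members holding 20 or more UMIs of other lineages Lgals1 was higher, with a ratio of 6.39 (4.17 to 9.96), and it was found in 36.1% of thinned Cherry_positive and 9.09% of thinned Cherry_negative members (55.3% and 13.2% without thinning), beside 52.6% and 5.49% of thinned AT2-like cells. The Cherry_positive share thus lay below that of AT2-like cells. Epithelial cells held 19200 CPM of Lgals1 in the Cherry_positive and 34.9 CPM in the Cherry_negative library. Mesenchymal cells held 3685 CPM of it in the Cherry_positive and 2050 CPM in the Cherry_negative library. The part of such RNA in the Lgals1 level of the members was not tested. The Cherry_negative cell with most UMIs of the gene held 97.0% of Ccl6, 97.5% of S100a4, 95.4% of Spp1 and 88.3% of Krt8. Krt18 (83.1%), Slpi (84.6%), Wfdc17 (77.5%), Ctss (66.7%) and Aprt (55.6%) were also held mostly by 1 Cherry_negative cell, and Il1b to 44.7%.

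MHC class II genes, which present peptides to CD4 T cells, were lower in Cherry_positive members, while they were higher in Cherry_positive general capillary cells. The list summed to 94.04 CPM in Cherry_positive and 825 CPM in Cherry_negative members, and 0 of 7 measured genes were higher. Of the 5 that could be called, 5 were at least 2-fold lower, against 4.58% of all genes. The median log2 ratio was -2.61, and 1.01 in general capillary cells, where the list summed to 4503 CPM in the Cherry_positive library and 1724 CPM in the Cherry_negative library. Cd74, the invariant chain gene, had 29.2 CPM in Cherry_positive and 424 CPM in Cherry_negative members, a ratio of 0.0689 (0.0313 to 0.132), against 2833 CPM in Cherry_positive and 939 CPM in Cherry_negative general capillary cells. H2-Ab1 had 35.7 CPM in Cherry_positive and 150 CPM in Cherry_negative members, a ratio of 0.237 (0.116 to 0.435), from 6 Cherry_positive and 45 Cherry_negative cells.

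AT2-like cells carried Cd74 at 6745 CPM in the Cherry_positive library and 7658 CPM in the Cherry_negative library, and their markers and those of macrophages were higher in Cherry_negative members, as given above. The AT2 markers stood at 0.0881% of their AT2-like level in Cherry_positive and 3.26% in Cherry_negative members. Of the Cherry_negative member UMIs, 1 cell held 155 of the 487 of Cd74, and 1 cell held 67 of the 125 of H2-Aa. The part of AT2 or macrophage RNA in the class II levels was not tested. Without members holding 20 or more UMIs of other lineages the class II list summed to 92.9 CPM in Cherry_positive and 298 CPM in Cherry_negative members. Its median log2 ratio was then -1.51 over only 4 measured genes. Of these 2 could be called, and 2 were at least 2-fold lower, against 3.67% of all genes. The Cd74 ratio was then 0.215 and the H2-Ab1 ratio 0.400. MHC class I genes had a median log2 ratio of 0.16, with 17 of 21 higher, against 4638 of 8799 over all genes. Of 20 that could be called 0 were at least 2-fold higher, against 1.73% of all genes. H2-D1 had 7773 CPM in Cherry_positive and 7251 CPM in Cherry_negative members, and B2m, the shared light chain gene, 7536 CPM in Cherry_positive and 6686 CPM in Cherry_negative members. Psmb8, an immunoproteasome subunit gene, had 473 CPM in Cherry_positive and 341 CPM in Cherry_negative members, a ratio of 1.39.

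Type I interferon genes were higher to a smaller degree. Of 21 measured genes 19 were higher, against 4638 of 8799 over all genes. Of 18 that could be called 3 were at least 2-fold higher, against 1.73% of all genes. The median log2 ratio was 0.53, beside 0.48 in general capillary cells. Without members holding 20 or more UMIs of other lineages 1 of 17 was at least 2-fold higher, against 1.49% of all genes. Rtp4, a transporter protein gene induced by interferon, had 279 CPM in Cherry_positive and 150 CPM in Cherry_negative members, a ratio of 1.86 (1.42 to 2.43), against 1.23 in general capillary cells. Isg15, a ubiquitin-like modifier, had 256 CPM in Cherry_positive and 175 CPM in Cherry_negative members, a ratio of 1.47 (1.11 to 1.91). Ifitm3 had 2844 CPM in Cherry_positive and 2142 CPM in Cherry_negative members, a ratio of 1.33.

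Genes that restrain T cells had a median log2 ratio of 0.16, and Ido1 was the single one of 6 that could be called to be at least 2-fold higher, against 1.73% of all genes. Cd274, which encodes PD-L1, had 61.6 CPM in Cherry_positive and 43.5 CPM in Cherry_negative members, with an interval that included 1 (0.789 to 2.45), against a ratio of 4.38 in general capillary cells. Chemokines had a median log2 ratio of 0.05 with 3 higher and 2 lower by 2-fold of 7, against 1.73% and 4.58% of all genes, and 1.26 without members holding 20 or more UMIs of other lineages. Ccl2, a monocyte chemokine gene, had 38.9 CPM in Cherry_positive and 5.22 CPM in Cherry_negative members, a ratio of 7.46 (2.59 to 24.2), from 12 Cherry_positive and 2 Cherry_negative cells. Mesenchymal cells held it at 2025 CPM in the Cherry_positive library and 231 CPM in the Cherry_negative library, and without members holding 20 or more UMIs of other lineages 12 Cherry_positive UMIs and 1 Cherry_negative UMI of Ccl2 remained. At the percents set by the fibroblast markers the Cherry_positive mesenchymal level comes to 179 CPM of Ccl2, and 53.05 CPM without those members, where 41.3 CPM was measured. The measured level of Ccl2 was thus below both. Cxcl16 had 169 CPM in Cherry_positive and 164 CPM in Cherry_negative members, a ratio of 1.03, and Cx3cl1 101 CPM in Cherry_positive and 112 CPM in Cherry_negative members, a ratio of 0.896.

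Cytokine and acute phase genes had a median log2 ratio of 0.34 and 0.17 without members holding 20 or more UMIs of other lineages, and it lay between -0.34 and 0.45 over the alternatives. Saa3, an acute phase gene, had 136 CPM in Cherry_positive and 15.7 CPM in Cherry_negative members, a ratio of 8.70 (4.90 to 16.1), against 56.2 in general capillary cells, and 14.4 without members holding 20 or more UMIs of other lineages. Saa3 had a UMI in 26.5% of thinned Cherry_positive and 3.16% of thinned Cherry_negative members, against 35.3% and 2.94% without thinning, and in 21.1% of Cherry_positive and 2.20% of Cherry_negative thinned AT2-like cells. Mesenchymal cells held 5122 CPM of Saa3 in the Cherry_positive library and 769 CPM in the Cherry_negative library. At the percents set by the fibroblast markers the Cherry_positive mesenchymal level comes to 453 CPM of Saa3, against 136 CPM measured, and to 134 CPM without members holding 20 or more UMIs of other lineages, against 138 CPM measured. The part of mesenchymal RNA in the level of the members was not tested. Il1a had a ratio of 1.36 (1.04 to 1.77), and Kitl, the stem cell factor gene, 1.16 (0.959 to 1.40).

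Among genes of coagulation and fibrinolysis, 8 of 11 were higher, against 4638 of 8799 over all genes, with a median log2 ratio of 0.14. Past 2-fold were 0 of 10, against 1.73% of all genes higher and 4.58% lower. Plaur, the urokinase receptor gene, had 856 CPM in Cherry_positive and 617 CPM in Cherry_negative members, a ratio of 1.39 (1.201 to 1.60). Thbd, which encodes the anticoagulant thrombomodulin, had 632 CPM in Cherry_positive and 604 CPM in Cherry_negative members, a ratio of 1.05. Plaur was thus modestly higher and Thbd nearly level.

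Leukocyte adhesion genes had a median log2 ratio of 0.12 with 0 higher and 1 lower by 2-fold of 10, against 4.58% of all genes lower. Icam1, the ligand of leukocyte integrins, had 794 CPM in Cherry_positive and 594 CPM in Cherry_negative members, a ratio of 1.34 (1.15 to 1.55), against 0.735 in general capillary cells. Cd47, the signal that restrains phagocytes, had 979 CPM in Cherry_positive and 769 CPM in Cherry_negative members, a ratio of 1.27 (1.11 to 1.45). Icam2 had 2231 CPM in Cherry_positive and 2439 CPM in Cherry_negative members, a ratio of 0.915. The gene past 2-fold was Cd99l2, at 6.49 CPM in Cherry_positive and 33.9 CPM in Cherry_negative members, a ratio of 0.191 (0.0224 to 0.738).

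**Figure D5:**
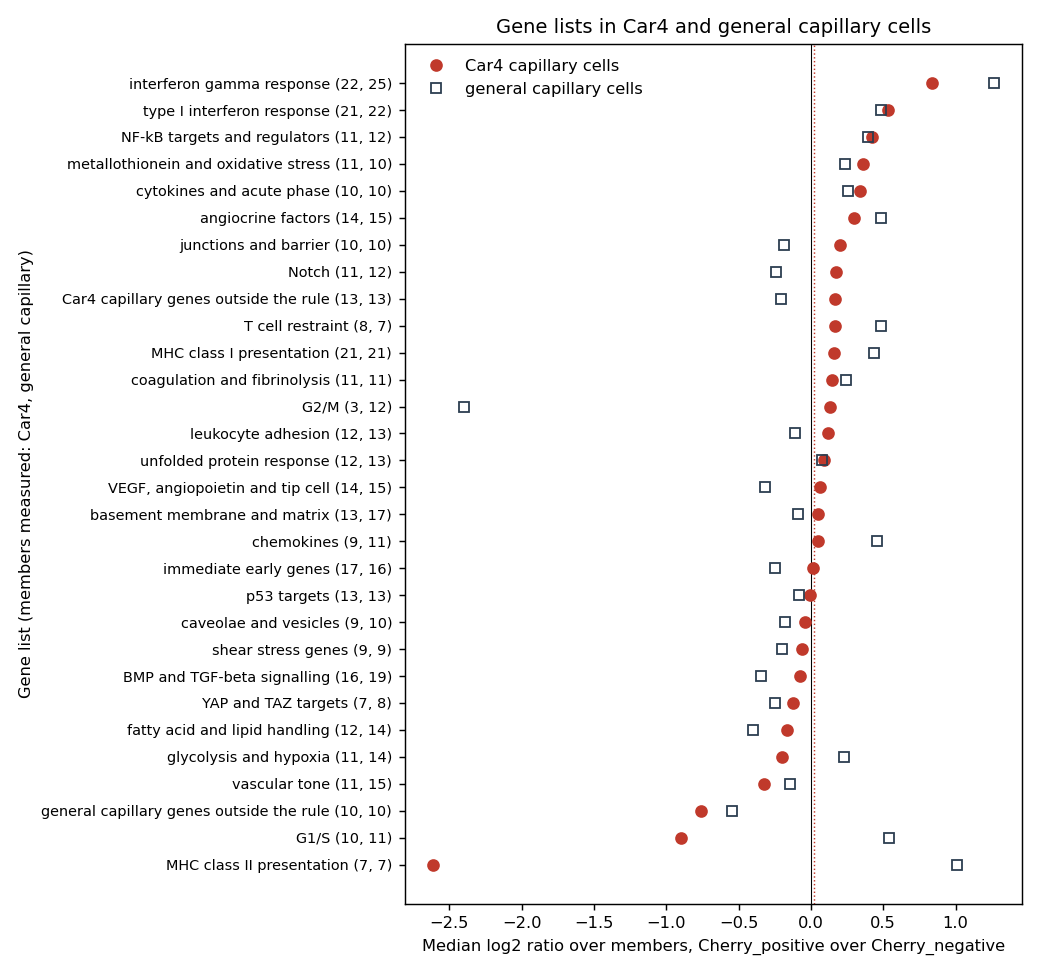
Median log2 ratio of Cherry_positive over Cherry_negative (x axis) for each gene list (rows, with the numbers of genes measured in Car4 and general capillary cells), as filled circles for Car4 capillary and open squares for general capillary cells. The dotted line is the Car4 median over all genes, 0.02, and the interferon gamma and MHC class II lists stand at 0.83 and -2.61 in Car4 capillary cells.

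Genes listed for general capillary cells outside the rule were lower in Cherry_positive members, with 1 of 10 higher and a median log2 ratio of -0.76. Of 9 that could be called, 5 were at least 2-fold lower, against 4.58% of all genes. The list summed to 976 CPM in Cherry_positive and 1782 CPM in Cherry_negative members, and to 3464 CPM in Cherry_positive and 4962 CPM in Cherry_negative general capillary cells, whose median was -0.54. Arterial cells held more of the list, at 4602 CPM in the Cherry_positive and 6076 CPM in the Cherry_negative library. The list thus does not single out general capillary cells. Gpihbp1, which anchors lipoprotein lipase to the capillary wall, had 201 CPM in Cherry_positive and 408 CPM in Cherry_negative members, a ratio of 0.493 (0.372 to 0.643). Hilpda, a lipid droplet protein gene, had 198 CPM in Cherry_positive and 423 CPM in Cherry_negative members, a ratio of 0.468 (0.352 to 0.612). Tek, the angiopoietin receptor gene, had 22.7 CPM in Cherry_positive and 61.8 CPM in Cherry_negative members, a ratio of 0.368 (0.143 to 0.797). Ptprb, given above, also belongs to this list. General capillary cells were 5.42% of kept Cherry_positive and 27.3% of kept Cherry_negative cells. The count of other-lineage UMIs holds no general capillary genes. The part of general capillary RNA in the levels of these genes, Ptprb included, was not tested. Car4 capillary genes outside the rule had a median of 0.17, with 0 of 13 past 2-fold in either direction, against 1.73% of all genes higher and 4.58% lower.

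Most signalling lists lay near the median of all genes, and the NF-kB list lay above it. The VEGF, angiopoietin and tip cell list had a median log2 ratio of 0.06, Notch 0.17, BMP and TGF-beta -0.08 and shear stress genes -0.06. The NF-kB median was 0.42, with 8 of 11 genes higher, and lay between 0.22 and 0.56 over the alternatives. Of 9 NF-kB genes that could be called, 1 was at least 2-fold higher, against 1.73% of all genes. In general capillary cells the NF-kB median was 0.40. Kdr had a ratio of 1.12 (0.984 to 1.27), against 0.805 in general capillary cells. Tie1, a receptor partner of Tek, had 130 CPM in Cherry_positive and 187 CPM in Cherry_negative members, a ratio of 0.694. Smad6, an inhibitor of BMP signalling, had 302 CPM in Cherry_positive and 431 CPM in Cherry_negative members, a ratio of 0.699 (0.554 to 0.874). Smad1, a transducer of the same pathway, had 55.1 CPM in Cherry_positive and 26.1 CPM in Cherry_negative members, a ratio of 2.11 (1.09 to 3.96). Klf2, a flow-induced transcription factor gene, had 1693 CPM in Cherry_positive and 1767 CPM in Cherry_negative members, a ratio of 0.958.

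Structural lists differed little. Junction and barrier genes had a median log2 ratio of 0.20, caveolae and vesicle genes -0.04, and basement membrane and matrix genes 0.05, with 0 of 9, 0 of 9 and 2 of 11 at least 2-fold higher, against 1.73% of all genes. Cav1, the caveolin of the capillary wall, had 827 CPM in Cherry_positive and 788 CPM in Cherry_negative members, a ratio of 1.05 (0.910 to 1.21). Mgp, a matrix protein gene, had 480 CPM in Cherry_positive and 197 CPM in Cherry_negative members, a ratio of 2.44 (1.97 to 3.02). Mesenchymal cells held 15282 CPM of Mgp in the Cherry_positive library and 7892 CPM in the Cherry_negative library, and without members holding 20 or more UMIs of other lineages the ratio was 6.05. At the percents set by the fibroblast markers the Cherry_positive mesenchymal level comes to 1351 CPM of Mgp, above the 480 CPM measured, and to 400.4 CPM without those members, above the 386 CPM measured. Its part was not tested. Angiocrine factors had a median of 0.30, with 2 of 8 at least 2-fold higher, and targets of YAP and TAZ -0.13, with 1 of 6, against 1.73% of all genes. The medians without members holding 20 or more UMIs of other lineages were 0.12 for angiocrine factors, with 1 of 7 at least 2-fold higher, and 0.07 for YAP and TAZ targets, with 0 of 4. Vascular tone genes had a median of -0.32, and Calcrl, the adrenomedullin receptor gene, had 704 CPM in Cherry_positive and 882 CPM in Cherry_negative members, a ratio of 0.798 (0.686 to 0.925). Ace, the angiotensin-converting enzyme, had 882 CPM in Cherry_positive and 966 CPM in Cherry_negative members, a ratio of 0.914.

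Stress and metabolic lists differed in how many genes passed 2-fold. The unfolded protein response, p53, and glycolysis and hypoxia lists had 0 in either direction. Metallothionein and oxidative stress genes had 2 higher and 1 lower of 8, and fatty acid and lipid genes 2 lower of 9. Immediate early genes had 1 lower of 15. Over all genes 1.73% were higher and 4.58% lower. The unfolded protein response list had a median log2 ratio of 0.09, p53 targets -0.01, glycolysis and hypoxia -0.20, fatty acid and lipid handling -0.16, and metallothionein and oxidative stress genes 0.36. The fatty acid and lipid median turned to 0.38, and the glycolysis and hypoxia median was -0.03, without members holding 20 or more UMIs of other lineages. Mt2, a metallothionein gene, had 130 CPM in Cherry_positive and 41.8 CPM in Cherry_negative members, a ratio of 3.11 (1.99 to 4.83), or 8.38 without members holding 20 or more UMIs of other lineages. Mesenchymal cells of the Cherry_positive library held 3218 CPM of Mt2, which at the same percents comes to 285 CPM, and to 84.3 CPM without those members, where 107 CPM was measured. Mt2 was found in 20.5% of thinned Cherry_positive and 3.56% of thinned Cherry_negative members (27.1% and 3.82% without thinning), which lay below the 31.6% of Cherry_positive and 3.85% of Cherry_negative thinned AT2-like cells. Nr4a1, an immediate early gene, had 25.9 CPM in Cherry_positive and 87.9 CPM in Cherry_negative members, a ratio of 0.295 (0.124 to 0.604) that was 0.489 without those members, while its list had a median of 0.01. G1/S genes had a median of -0.90 over 10 genes, and -0.07 without members holding 20 or more UMIs of other lineages. Of the 4 G1/S genes that could be called, 3 were at least 2-fold lower, against 4.58% of all genes. Without those members 1 could be called and 0 were past 2-fold. Of the G2/M genes 3 reached 10 UMIs, and 0 could be called.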

How the data were processed

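The deposited matrices hold UMI counts per gene and barcode for 27998 gene IDs of 2 libraries, unnormalised per the file values, with 1 library per group. Per the submitters' processing notes, the tools were Cell Ranger 2.1.1, Seurat 4.0.2 and R 4.0.3 with build mm10; further parameters are not given in the sources used. The members and gene lists were chosen with earlier results of these data known.

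A cell was kept with at least 500 genes and at most 10% mitochondrial UMIs, which left out 56 Cherry_positive and 50 Cherry_negative barcodes. Scrublet in scanpy 1.11.5 called 4 Cherry_positive (0.226%) and 8 Cherry_negative (0.285%) doublets, too few to show that it worked, and none were removed; 0 Cherry_positive and 2 Cherry_negative calls were members. UMIs were summed over the members of a library and divided by all their UMIs. A ratio carries the exact 95% interval of the matching binomial share, which covers counting error only. A gene was called at a ratio of at least 2 or at most 0.5. List medians used members with at least 10 UMIs, with 0.5 added to each count, and needed 3 such members. The 28 lists and 11 marker lists held 5 symbols without a usable ID. Mesenchymal and epithelial cells were those outside the endothelial rule with at least 4 UMIs of fibroblast or epithelial genes and more of these than of other lineages, and AT2-like cells were epithelial cells with at least 10 UMIs of Sftpb, Sftpd, Lamp3, Napsa and Slc34a2. Both served as comparison for free RNA. Shares of cells were also taken after thinning to 2000 UMIs, which left out 2 Cherry_positive and 87 Cherry_negative members.

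Named genes are the 15 each way whose interval bound nearest 1 lay farthest from it. Mitochondrial, ribosomal, haemoglobin and immunoglobulin genes, rule genes and genes over 10 times higher in another lineage were left out. Genes such as Saa3 or Mgp outside this rule come from the lists and were picked from them after their values were seen. The scripts were tested on simulated counts. Alternatives were other cell filters, class thresholds, scalings (TMM of edgeR 4.0.16, which moved all log2 ratios by -0.04) and gene filters. Python 3.11.15, numpy 2.4.6, scipy 1.17.1, pandas 2.3.3 and matplotlib 3.10.9 were used. Gene positions came from GENCODE M21 (GRCm38) and upstream sequence from RefSeq.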

Additional observations from a re-analysis of the deposited data

How the results depend on the processing

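No paired analysis was possible because each group has 1 library. Of 30 named genes, 7 turned direction in some alternative; of the other 23, Wfdc17 and Ctss had 0 UMIs in both libraries in 1 alternative each and so no direction there. Of 30 list medians, 16 took both signs over the alternatives. MHC class II lay between -3.34 and -1.51, G1/S between -1.76 and -0.07, and fatty acid and lipid handling between -0.23 and 0.38. The interferon gamma median log2 ratio lay between 0.53 and 0.89, and the ratios lay between 4.23 and 12.9 for Cxcl10, 1.99 and 2.59 for Sox18, and 0.300 and 0.371 for Ptprb.

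A Car4 sum of at least 2 gave 402 lower genes. A sum of at least 6 gave Cherry_negative shares of 10.5% of kept and 19.1% of endothelial cells, a chemokine median of 0.80 and a Ccl6 ratio of 7.37. Without members holding 5 or more UMIs of other lineages, which were 5 Cherry_positive and 238 Cherry_negative cells, the Cherry_negative shares were 5.63% and 18.7%, 62 genes were higher and 62 lower, the medians were 2.03 for chemokines, -0.43 for shear stress genes and -0.29 for immediate early genes, and the Lgals1 ratio was 3.97. With a limit of 20 such UMIs, an alternative chosen after seeing the data, the chemokine median was 1.26 and the ratios were 6.39 for Lgals1 and 1.62 for each of Krt8, Il1b and Krt18. For Krt8 and Il1b that ratio rests on 1 Cherry_positive and 2 Cherry_negative UMIs each. For Krt18 it rests on 2 Cherry_positive and 4 Cherry_negative UMIs. These counts are too few to compare. Applying the rule after thinning gave a chemokine median of 0.71 and ratios of 6.01 for Ccl6 and S100a4, 1.001 for Krt8, 3.10 for Lgals1 and 2.002 for Krt18. The mean over cells gave 1.41 for S100a4, 2.003 for Spp1 and 2.79 for Lgals1. With 10 UMIs and no CPM minimum, 395 genes were higher and 991 lower of 8799. Without the cell holding most UMIs of the gene, the ratios were 1.85 for Ccl6, 4.28 for S100a4, 2.68 for Spp1 and 3.53 for Lgals1. In 9 cases, for Wfdc17, Spp1, Ccl6, S100a4 and Ctss, a setting left 0 Cherry_negative UMIs and no ratio. The cause of these changes was not tested, beyond the removal of the cells named.

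With 308374 Cherry_positive member UMIs, 1 UMI is worth about 3.24 CPM, so genes of low level could not be compared at this depth. Cherry_positive values rest on 85 cells, and differences between animals, between sorts and between libraries cannot be told apart from differences between the fractions.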
